A study of Mus musculus with 8 samples.

Results

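Described here are 10 genes that encode matrix glycoproteins of the basement membrane and of healing wounds, Fn1, Tnc, Thbs1, Postn, Hspg2, Fbln1, Nid1, Nid2, Agrn and Sparc, in sorted epithelial cells of mouse skin epidermis. They were taken by gene name from the deposited table of normalised RNA sequencing values, and all 10 were found among its 32574 genes. The table holds 8 libraries in 4 groups of 2. The ablation groups, Lrig1 ablation and K14 ablation, come from mice whose genotype label is ablation of the basal lineage, and the Lrig1 control and K14 control groups from mice labelled wild type (WT). The sources used here give neither the agent or driver of the ablation, nor the time after it, nor the age of the mice. They also leave unsaid what K14 and Lrig1 stand for, and each is used below as the name of a population. Since separate animals are not stated for the 2 libraries of a group, each p-value rests on a spread between libraries that may be technical.

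The basement membrane is the thin sheet of matrix on which basal keratinocytes sit. Laminin and type IV collagen form its networks, the nidogens (Nid1, Nid2) link them, and the heparan sulphate proteoglycans perlecan (Hspg2) and agrin (Agrn) bind into the sheet and hold growth factors. Fibulin-1 (Fbln1) is a calcium-binding glycoprotein of basement membranes and elastic fibres. Fibronectin (Fn1), tenascin-C (Tnc), thrombospondin-1 (Thbs1) and periostin (Postn) are known for accumulating in the provisional matrix of healing skin, and Sparc, also called osteonectin, is a collagen-binding protein that loosens cell attachment.

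Libraries held between 6458636 and 11654135 recovered reads, and 3 reads, used as the floor of detection, corresponded to a normalised read count of 2.12 to 4.23. Replicates differed by more than sampling noise in every group, where the chi-square divided by the number of genes was 39.5 for Lrig1 ablation and 2.58 for Lrig1 control, and 27.7 for K14 ablation and 1.57 for K14 control, so the control pairs were much closer than the ablation pairs. The libraries of Lrig1 ablation stood far apart from each other. The summed normalised reads of 8 basal keratinocyte genes were 246680 in Lrig1 ablation 1 and 116262 in Lrig1 ablation 2, against 125786 and 136421 in Lrig1 control. The same sum was 245807 and 230570 in K14 ablation, against 218224 and 215225 in K14 control. Krt14, a basal keratin, was between 28052 and 79645 in every library, and Lrig1 was 4013 and 4194 in the Lrig1 control libraries, against 585 and 656 in the K14 control libraries. In bulk samples, fewer cells of a type and less RNA per cell cannot be told apart.

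Per length of annotated exon, Thbs1 was the most abundant of the 10 in every group. Its level was 1322 ± 410 normalised reads per kb in Lrig1 ablation and 789 ± 56.9 in Lrig1 control, and 1368 ± 239.96 in K14 ablation and 3643 ± 71.9 in K14 control (SD, n = 2 each). Postn came second in both Lrig1 groups and Sparc in both K14 groups, and Nid2 was last in all 4. Replicates of neighbours in this order overlapped for Sparc and Hspg2 in Lrig1 ablation and for Agrn and Sparc in Lrig1 control. They also overlapped for Sparc and Agrn and for Nid1 and Fn1 in K14 ablation. In K14 control no neighbours overlapped. The mean level per kb of Thbs1 lay above that of at least 97.5% of the tested genes with an annotated length in each group, and that of Nid2 above that of 1.21 to 13.5%. Thbs1 made up 42.5 and 45.2% of the summed level per kb of the 10 genes in the K14 ablation libraries, against 73.4 and 73.1% in the K14 control libraries. Its share was 32.8 and 48.6% in Lrig1 ablation, against 40.02 and 43.1% in Lrig1 control.

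**Figure D1:**
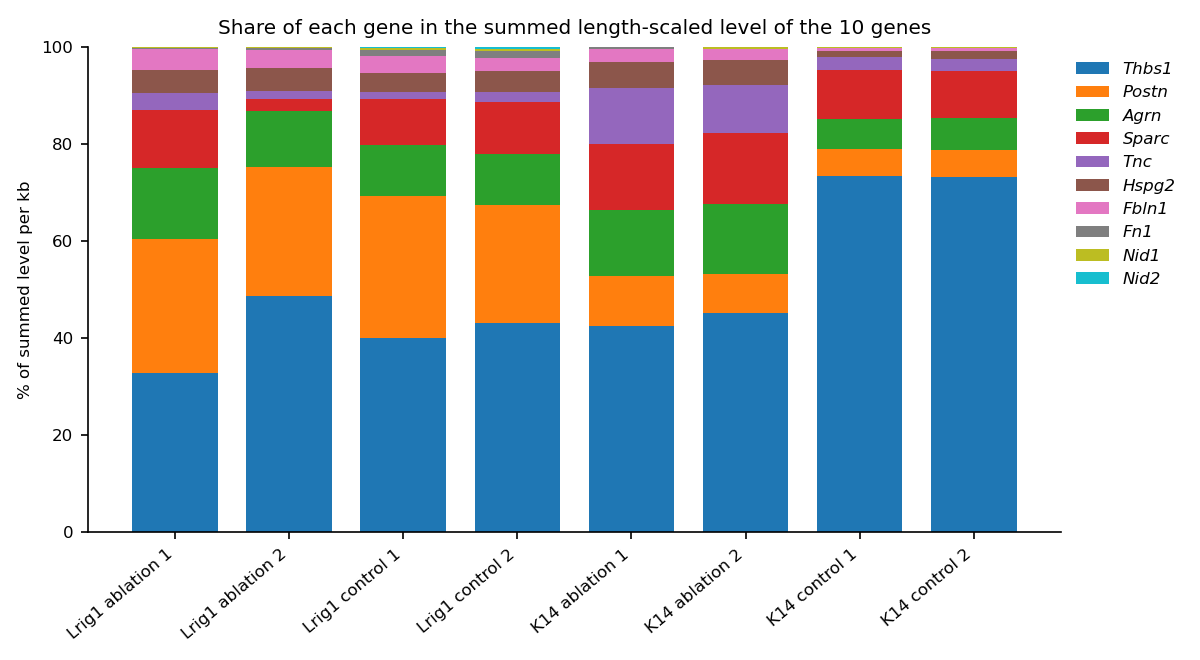
Share of each of the 10 genes in their summed level per kb of exon, in percent, for each library (stacked bars from 0 to 100%). The Thbs1 segment reaches 73.4 and 73.1% in the K14 control libraries and lies between 32.8 and 48.6% in the other 6.

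The comparison of ablation with control asks, within each population, which of these genes differ with the ablation. In Lrig1, 4 of the 10 rose and 0 fell: Fbln1, Hspg2, Agrn and Postn (limma adjusted p under the threshold of 0.05 over all 18140 tested genes; 8 of the 10 at an unadjusted p under 0.05, beside 20.1% of all tested genes). Over all tested genes 4.06% passed in this comparison, 0.766% higher and 3.3% lower. That balance turned with the scaling, at 139 genes higher and 598 lower as deposited and 551 higher and 366 lower with libraries rescaled to CPM, where 5 of the 10 rose and 0 fell. In K14, 2 of the 10 rose and 0 fell, Hspg2 and Fbln1 (6 of the 10 at an unadjusted p under 0.05, beside 12.8% of all tested genes). In K14 0.187% of all tested genes passed, 0.0992% higher and 0.0882% lower. The median log2 difference over the 10 was 0.75 in Lrig1 and 0.24 in K14, beside -0.02 and -0.002 over all tested genes. The groups did not overlap for 9 of the 10 in Lrig1 and for 6 of the 10 in K14, beside 47.9% and 53% of all tested genes. All log2 values here are differences in log2(normalised read count + 1), which understates the change of low genes.

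**Figure D2:**
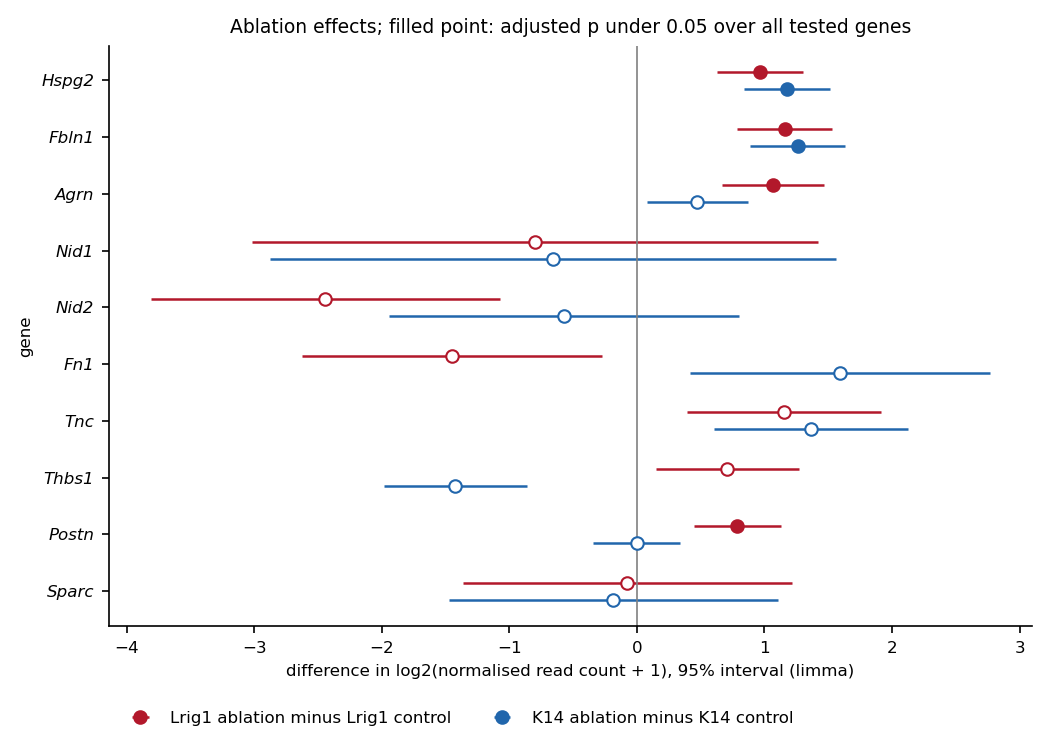
Difference in log2(normalised read count + 1) between ablation and control for each gene, in Lrig1 (red) and in K14 (blue), with 95% intervals from limma; filled points passed an adjusted p of 0.05 over all tested genes. Hspg2 and Fbln1 passed in both populations, Agrn and Postn in Lrig1, and Thbs1 and Fn1 have values of opposite sign in the populations.

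Among the basement membrane genes, Hspg2 (ENSMUSG00000028763, GRCm38 chromosome 4, 137468769 to 137570630, plus strand), the perlecan core protein, was 1.95-fold higher in Lrig1 ablation and 2.26-fold higher in K14 ablation by the ratio of group means. Its normalised read count was 2121 and 2251 in Lrig1 ablation, against 1078 and 1166 in Lrig1 control, and 2211 and 2523 in K14 ablation, against 971 and 1127 in K14 control. Every ablation library lay above every control library. The log2 difference was 0.96 ± 0.15 in Lrig1 (SE; limma adjusted p = 0.0144) and 1.17 ± 0.15 in K14 (limma adjusted p = 0.0305). The difference between these effects, Lrig1 minus K14, was -0.21, with a 95% interval of -0.69 to 0.26.

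Fbln1 (ENSMUSG00000006369, chromosome 15, 85205949 to 85286535, plus strand) was 595 and 556 in Lrig1 ablation, against 276 and 240 in Lrig1 control. In K14 ablation it was 325 and 321, against 123 and 147 in K14 control. The ablation libraries were higher than their own controls in both populations, and the K14 ablation libraries also lay above the Lrig1 control libraries. The ratio of group means was 2.23 in Lrig1 and 2.40 in K14. On the log2 scale Fbln1 rose by 1.16 ± 0.16 in Lrig1 (SE; limma adjusted p = 0.0118) and by 1.26 ± 0.16 in K14 (limma adjusted p = 0.0322), and these effects differed by -0.10 (95% interval -0.63 to 0.43).

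Agrn (ENSMUSG00000041936, chromosome 4, 156165290 to 156197488, minus strand), the agrin core protein, was 4267 and 3555 in Lrig1 ablation, against 1836 and 1882 in Lrig1 control. It was 3561 and 4568 in K14 ablation, against 2789 and 3027 in K14 control. The groups did not overlap in either population. The log2 difference was 1.07 ± 0.17 in Lrig1 (SE; limma adjusted p = 0.0175) and 0.47 ± 0.17 in K14, which did not pass (limma adjusted p = 0.329). The difference of effects, 0.59 ± 0.24, did not pass either (limma adjusted p = 0.312). Agrn and Hspg2 were the most alike of the 10 genes in their profile over the 8 libraries, with a root mean square difference of 0.32 between their centred log2 values.

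The nidogens were low in every library and neither passed in an ablation comparison. Nid2 (ENSMUSG00000021806, chromosome 14, 19751265 to 19811787, plus strand) was 4.44 and 4.78 in Lrig1 ablation, from 5 and 6 reads, against 25.6 and 33.8 in Lrig1 control, from 22 and 24 reads. It was 4.25 and 1.07 in K14 ablation, against 5.08 and 2.95 in K14 control, near the floor of 3 reads in these 4 libraries. The Lrig1 control libraries thus stood above the other 6, and Nid2 entered the tests only through them. The log2 difference in Lrig1 was -2.44 ± 0.60 (SE; limma adjusted p = 0.063). With 8 in place of 1 added to the counts it was -1.57 and passed (limma adjusted p = 0.0197), so its size depends on that setting. Leaving out 1 library gave -2.485 to -2.398 where Nid2 was still tested. Nid1 (ENSMUSG00000005397, chromosome 13, 13437551 to 13512269, plus strand) was 24.0 and 43.8 in Lrig1 ablation, against 59.4 and 55.0 in Lrig1 control. In K14 ablation it was 6.37 and 89.0, against 46.7 and 33.5 in K14 control. The K14 ablation replicates lay on both sides of the control pair, and the K14 difference of -0.66 became 1.15 without K14 ablation 1 and -2.46 without K14 ablation 2. Nid2 shares exon sequence with 2700060E02Rik on the opposite strand, whose normalised read count was 486 to 866. Whether counting used strand is not stated, so reads in the exon sequence shared by the 2 genes cannot be told apart. The same limit holds for Nid1, which shares exon sequence with an antisense gene, ENSMUSG00000113380, that is not among the genes of the deposited table.

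Among the wound matrix genes, Postn (ENSMUSG00000027750, chromosome 3, 54361109 to 54391037, plus strand), which encodes the integrin-binding protein periostin, rose after ablation in Lrig1. It was 7563 and 7655 in Lrig1 ablation, against 4768 and 4078 in Lrig1 control, which put Postn 0.79 ± 0.15 higher on the log2 scale (SE; limma adjusted p = 0.029). In K14 ablation it was 2549 and 2366, against 2401 and 2516 in K14 control, and these groups overlapped. The K14 difference was -0.001, with a 95% interval of -0.34 to 0.34. The difference of effects, 0.79 ± 0.21, did not pass (limma adjusted p = 0.159).

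Tnc (ENSMUSG00000028364, chromosome 4, 63959785 to 64047015, minus strand), which encodes the anti-adhesive glycoprotein tenascin-C, was 871 and 403 in Lrig1 ablation, against 220 and 321 in Lrig1 control. It was 2524 and 2637 in K14 ablation, against 971 and 1034 in K14 control. Both ablation pairs lay above their controls, and the K14 replicates were close to each other. The log2 difference was 1.15 ± 0.33 in Lrig1 (SE; limma adjusted p = 0.0996) and 1.36 ± 0.33 in K14 (limma adjusted p = 0.185), and neither passed. The spread that entered both tests came in part from Lrig1 ablation, where the replicates were more than 2-fold apart: without Lrig1 ablation 2 the values were 1.71 in Lrig1 (limma adjusted p = 0.00563) and 1.36 in K14 (limma adjusted p = 0.0169). Without Lrig1 ablation 1 Tnc was at 0.60 in Lrig1 and did not pass (limma adjusted p = 0.106), and it passed in K14 (limma adjusted p = 0.0174). It passed in Lrig1 with CPM scaling (limma adjusted p = 0.0426), and DESeq2 on the recovered reads called it in Lrig1 (adjusted p = 0.00386) and in K14 (adjusted p = 0.00254).

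Thbs1 (ENSMUSG00000040152, chromosome 2, 118111876 to 118127133, plus strand), which encodes the secreted activator of latent TGF-beta thrombospondin-1, had ablation values of opposite sign in the populations. It was 6266 and 9786 in Lrig1 ablation, against 4548 and 5037 in Lrig1 control. It was 7278 and 9339 in K14 ablation, against 21818 and 22435 in K14 control. Both Lrig1 ablation libraries lay above their controls and both K14 ablation libraries far below theirs. The log2 difference was 0.71 ± 0.24 in Lrig1 (SE; limma adjusted p = 0.155) and -1.42 ± 0.24 in K14 (limma adjusted p = 0.0933), and the difference of effects was 2.13 ± 0.34 (limma adjusted p = 0.0652). None of the 3 passed. For the difference of effects 0 of the 10 genes passed with limma (4 at an unadjusted p under 0.05, beside 15% of all tested genes; 0 with edgeR and 2 with DESeq2), against 0.198% of all tested genes, 0.011% higher and 0.187% lower. DESeq2 called all 3 (adjusted p = 0.0369 in Lrig1, 4.97e-06 in K14 and 7.46e-07 for the difference), and limma called the difference without K14 ablation 2 (adjusted p = 0.048), Lrig1 ablation 1 (adjusted p = 0.0121) or Lrig1 ablation 2 (adjusted p = 0.0143). The K14 value passed without each of these 3 libraries (limma adjusted p between 0.0096 and 0.0458), and the Lrig1 value was 1.03 without Lrig1 ablation 1 (limma adjusted p = 0.0161) and 0.39 without Lrig1 ablation 2.

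Fn1 (ENSMUSG00000026193, chromosome 1, 71585520 to 71653200, minus strand), the fibronectin gene, was low in every library and also had values of opposite sign. It was 79.9 and 136 in Lrig1 ablation, against 257 and 320 in Lrig1 control. It was 108 and 37.5 in K14 ablation, against 15.2 and 27.6 in K14 control. The highest libraries were those of Lrig1 control and the lowest those of K14 control. The log2 difference was -1.45 ± 0.51 in Lrig1 (SE; limma adjusted p = 0.164) and 1.59 ± 0.51 in K14 (limma adjusted p = 0.279), and the difference of effects was -3.04 ± 0.72 (limma adjusted p = 0.124). DESeq2 called all 3 (adjusted p = 0.046, 0.0421 and 0.00119), and limma called the difference without K14 ablation 2 (adjusted p = 0.0453). The K14 value was 2.34 without K14 ablation 2 and 0.84 without K14 ablation 1, and did not pass in either.

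Sparc (ENSMUSG00000018593, chromosome 11, 55394500 to 55423183, minus strand) was 1438 and 320 in Lrig1 ablation, against 660 and 775 in Lrig1 control, so the ablation replicates lay on both sides of the controls. It was 1448 and 1876 in K14 ablation, against 1889 and 1859 in K14 control, and these groups overlapped. The Lrig1 difference was -0.08 ± 0.56 (SE; limma adjusted p = 0.961), but it was 1.01 without Lrig1 ablation 2 (limma adjusted p = 0.016) and -1.16 without Lrig1 ablation 1 (limma adjusted p = 0.0127). Sparc followed the basal keratinocyte sum in that pair, which was also high in Lrig1 ablation 1 and low in Lrig1 ablation 2. Tnc, at 871 and 403, was likewise higher in Lrig1 ablation 1 than in Lrig1 ablation 2. The part of cell composition in Sparc and Tnc was not tested.

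**Figure D3:**
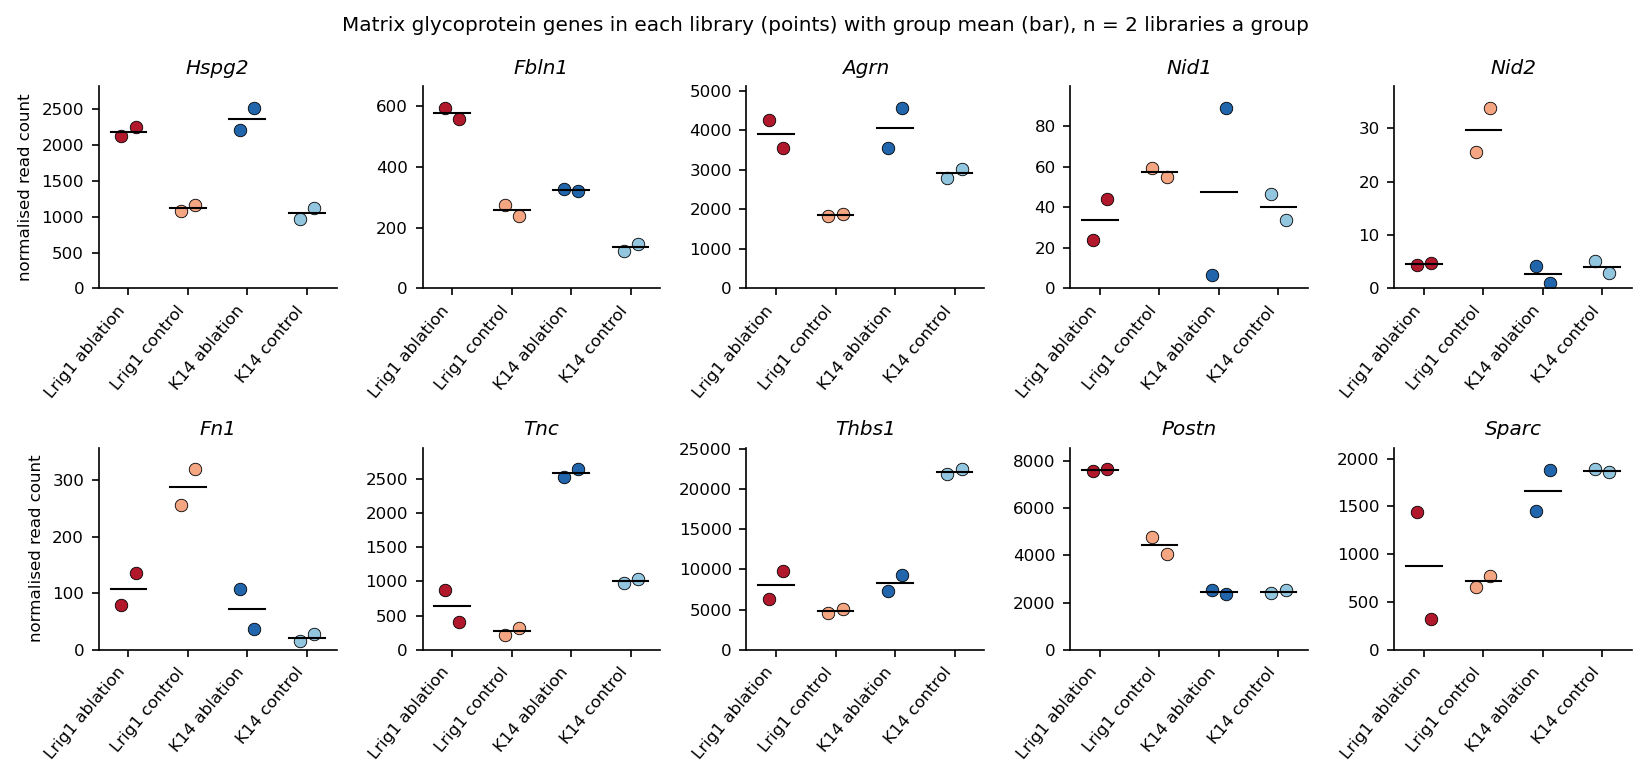
Normalised read count of each of the 10 genes in every library (points) with the group mean (bar), 2 libraries a group, on linear axes from 0. Hspg2 and Fbln1 are higher in ablation than in control in both populations, Thbs1 stands at 21818 and 22435 in K14 control, and Sparc is split in Lrig1 ablation.

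The calls depended on the control libraries, whose pairs were the closest. In Lrig1, 0 of the 4 calls held without Lrig1 control 1 or Lrig1 control 2 (limma adjusted p between 0.112 and 0.313), and 1, Fbln1, held without either K14 control library. In K14, neither Hspg2 nor Fbln1 passed without K14 ablation 1 (limma adjusted p = 0.0649 and 0.0853), either K14 control library (0.317 to 0.573) or either Lrig1 control library (0.143 to 0.147). Their log2 values stayed between 1.07 and 1.28 for Hspg2 and between 1.13 and 1.39 for Fbln1 in K14.

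Sequences before the gene start are shown for the 4 genes called in Lrig1 because they are the 4 that passed there. The RefSeq table used (GRCm38.p6) was matched for 7 of the 10 genes. The stretches begin 250 bases before the RefSeq start nearest to the GENCODE start and end at whichever start comes first, with matches to the motifs below in capitals and each sequence read 5′ to 3′ along its gene. They lie at chr15:85205699-85205948, plus strand, chr4:137468553-137468768, plus strand, chr4:156197489-156197738, minus strand and chr3:54360857-54361106, plus strand.
Fbln1: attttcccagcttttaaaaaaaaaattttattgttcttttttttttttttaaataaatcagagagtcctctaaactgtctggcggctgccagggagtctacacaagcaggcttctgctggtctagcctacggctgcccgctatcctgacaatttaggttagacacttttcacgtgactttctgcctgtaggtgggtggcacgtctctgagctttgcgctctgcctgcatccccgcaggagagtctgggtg
Hspg2: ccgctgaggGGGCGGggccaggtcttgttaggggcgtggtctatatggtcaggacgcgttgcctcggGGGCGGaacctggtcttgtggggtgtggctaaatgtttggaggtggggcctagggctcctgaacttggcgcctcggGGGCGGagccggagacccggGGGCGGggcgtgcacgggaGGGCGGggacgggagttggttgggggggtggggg
Agrn: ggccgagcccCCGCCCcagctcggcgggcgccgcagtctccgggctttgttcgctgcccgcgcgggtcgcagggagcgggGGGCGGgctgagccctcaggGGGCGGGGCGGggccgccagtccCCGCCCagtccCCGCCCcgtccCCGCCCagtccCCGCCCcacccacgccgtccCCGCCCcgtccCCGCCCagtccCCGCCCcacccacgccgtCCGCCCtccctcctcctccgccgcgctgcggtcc
Postn: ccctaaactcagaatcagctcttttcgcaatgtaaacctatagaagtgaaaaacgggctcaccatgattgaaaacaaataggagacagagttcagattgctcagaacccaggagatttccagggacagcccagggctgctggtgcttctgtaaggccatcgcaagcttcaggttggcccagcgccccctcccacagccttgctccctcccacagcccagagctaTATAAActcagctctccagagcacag

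Both strands of the 250 bases were searched for 5 motifs. The proteoglycan genes Agrn and Hspg2 held 12 and 5 matches to the SP1 motif GGGCGG, and their stretches were 83.6 and 70.8% G or C. Among all 32851 RefSeq stretches of this length, 32.7% hold at least 1 such match. Postn held none of these but had the TATA motif TATAAA at 26 bases before the start, a match found in 12.4% of all stretches. Fbln1, at 46.4% G or C, held none of the 5 motifs. The AP-1 motif TGANTCA, in 6.75% of all stretches, was in none of the 4 genes. Neither the TEAD motif GGAATG (12.6% of all stretches) nor the box with the letters CCAAT (33.8% of all stretches) was found in these 4 either. Some neighbouring matches to GGGCGG overlap in Agrn. A match is a description of the letters only, and its absence says nothing about binding.

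The comparison of Lrig1 with K14 in control libraries asks how the populations differ without ablation. Of the 10 genes 6 passed (8 at an unadjusted p under 0.05, beside 24.4% of all tested genes), against 8.79% of all tested genes, 6.52% higher and 2.27% lower (1183 and 411 genes, and 958 and 610 with CPM scaling): Fn1, Nid2, Fbln1 and Postn were higher in Lrig1 control, and Thbs1 and Tnc were lower. The groups did not overlap for 9 of the 10, beside 68.9% of all tested genes. Fn1 was higher by 3.74 ± 0.51 on the log2 scale (SE; limma adjusted p = 0.00633) and 13.5-fold by the ratio of means. Fbln1 was higher by 0.93 ± 0.16 (limma adjusted p = 0.0138) and Postn by 0.84 ± 0.15 (limma adjusted p = 0.0141). Nid2 was at 2.63 ± 0.60 (limma adjusted p = 0.0337). It entered the tests only through the Lrig1 control libraries, where it is high, so its call is in part set by the filter on low values. Without that filter Nid2 did not pass (limma adjusted p = 0.057). Thbs1 fell by 2.21 on the log2 scale in Lrig1 control relative to K14 control, to 0.217 of the K14 control mean (limma adjusted p = 0.004), and Tnc fell by 1.91 (limma adjusted p = 0.0137). Agrn, at -0.64 ± 0.17 (limma adjusted p = 0.0582), and Sparc, at -1.39 ± 0.56 (limma adjusted p = 0.177), passed without Lrig1 ablation 1 or Lrig1 ablation 2, and Agrn also without either K14 ablation library. Nid1 was at 0.52 ± 0.96 and Hspg2 at 0.10, with a 95% interval of -0.24 to 0.44. Fitting only the control groups kept these 6 calls and added Sparc (limma adjusted p = 1.86e-09) and Agrn (limma adjusted p = 1.12e-06), both lower. Array weights also called 8 of the 10. The calls rested on the control libraries: all 6 ended without K14 control 1, and 5 ended without K14 control 2, where Fn1 held. Without Lrig1 control 1 or Lrig1 control 2 Fn1, Thbs1, Tnc, Fbln1 and Postn ended, and Nid2 was not tested.

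Between Lrig1 ablation and K14 ablation 2 of the 10 genes passed (3 at an unadjusted p under 0.05, beside 16.4% of all tested genes), against 0.667% of all tested genes, 0.463% higher and 0.204% lower. The groups did not overlap for 5 of the 10, beside 39% of all tested genes. Postn was higher in Lrig1 ablation by 1.63 ± 0.15 (SE; limma adjusted p = 0.0127), a ratio of means of 3.10, and Tnc was lower, at -2.12 ± 0.33 (limma adjusted p = 0.0389). Both calls ended without any 1 of the 4 control libraries (limma adjusted p between 0.0714 and 0.114), and Tnc also ended without either K14 ablation library (0.0659 and 0.0703). Fbln1 was at 0.83 ± 0.16 and did not pass (limma adjusted p = 0.0727), though it did without Lrig1 ablation 1 (limma adjusted p = 0.0205). Thbs1, which was 4.62-fold lower in Lrig1 control than in K14 control, had a mean of 8026 in Lrig1 ablation and 8308 in K14 ablation, and the replicates overlapped. The log2 difference was -0.07, with a 95% interval of -0.63 to 0.49. For Agrn the difference was -0.05 (95% interval -0.45 to 0.35), for Hspg2 -0.11 (-0.45 to 0.22) and for Fn1 0.70 (-0.48 to 1.88), and Sparc was at -1.28 ± 0.56 (limma adjusted p = 0.309) and at -2.36 without Lrig1 ablation 1 (limma adjusted p = 0.00139). These comparisons share libraries with the ablation comparisons, so they add no independent measurement.

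Markers of other cell types moved with some of these values. For the counts below, over all tested genes 0.766% rose and 3.3% fell in Lrig1 ablation, and 0.187% passed in K14 ablation (limma). Unadjusted p-values under 0.05 were held by 20.1% in Lrig1 and 12.8% in K14. Between controls 6.52% were higher in Lrig1. The summed normalised reads of 10 endothelial genes were 92.3 and 155 in Lrig1 ablation, against 1024 and 1140 in Lrig1 control. They were 145 and 83.6 in K14 ablation, against 104 and 82.7 in K14 control. Sele was at 0 in both Lrig1 ablation libraries and Kdr in both K14 control libraries. Of these 10 genes 6 fell in Lrig1 ablation, and 8 were higher in Lrig1 control than in K14 control. Several of them, with Sele, Selp and Emcn among them, entered the tests only through the Lrig1 control libraries. These counts are thus in part set by the filter on low values. Fn1 and Nid2 were high in the same 2 libraries, and the part of endothelial RNA in them was not tested. The 10 fibroblast genes summed to 451 and 515 in Lrig1 ablation, against 434 and 581 in Lrig1 control, and to 187 and 223 in K14 ablation, against 231 and 252 in K14 control. Of their 7 tested members 0 passed in either ablation comparison (limma; 0 in Lrig1 and 3 in K14 at an unadjusted p under 0.05), Lum and Twist2 were at 0 in both K14 control libraries, and Dpt was at 0 in both Lrig1 ablation libraries. The sums overlapped in Lrig1, where the median log2 difference of the 7 was -0.01. In K14 the sum was lower while 5 of the 7 had positive values, with a median of 0.41. The part of fibroblast RNA in the rises of Hspg2 and Fbln1 was not tested. Genes of the hair follicle bulge and germ summed to 3330 and 7278 in Lrig1 ablation, against 6130 and 5467 in Lrig1 control, and to 1234 and 2058 in K14 ablation, against 1341 and 1498 in K14 control, and none of the 6 was at 0 in both libraries of a group. Postn was likewise higher in both Lrig1 groups than in both K14 groups, and the part of follicle cells in it was not tested. Genes of epidermal differentiation summed to 35290 and 34126 in Lrig1 ablation, against 110338 and 124600 in Lrig1 control, and to 82230 and 56948 in K14 ablation, against 72605 and 67822 in K14 control. Of these 8 genes 5 fell in Lrig1 ablation, with a median of -2.03, beside the rises of Hspg2, Fbln1, Agrn and Postn. In K14 ablation 0 passed (limma; 5 at an unadjusted p under 0.05), but 1 of the 8 had a positive value and the median was -0.55, beside the rises of Hspg2 and Fbln1. The part of these values in the rises was not tested.

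Values of opposite sign, as for Fn1, were also found among the list medians. Endothelial genes had medians of -4.11 in Lrig1, in part set by the filter, and 0.83 in K14. In K14 their sums overlapped, several lay near the floor, 7 of the 10 had positive values and 0 passed (limma). There 4 had an unadjusted p under 0.05, beside 12.8% of all tested genes. Upper hair follicle genes had medians of -0.95 and 0.09, but only 3 of the 6 had positive values in K14, so the latter shows no direction. Myeloid and Langerhans cell genes had medians of opposite sign as well. Their 10 genes summed to 220 and 201 in Lrig1 ablation, against 431 and 596 in Lrig1 control, and to 454 and 518 in K14 ablation, against 317 and 366 in K14 control. Of the 8 tested 1 fell in Lrig1 ablation, Lyz2, with a median of -1.56, and 0 passed in K14 ablation (limma; 2 at an unadjusted p under 0.05), with a median of 1.13. The 6 upper hair follicle genes summed to 15759 and 30522 in Lrig1 ablation, against 49726 and 51961 in Lrig1 control, and to 8229 and 14265 in K14 ablation, against 7301 and 7423 in K14 control. Krt17, the wound keratin among them, fell in Lrig1 ablation, at -0.78 ± 0.17, and rose in K14 ablation, by 1.70 ± 0.17 (SE), while Lgr6 rose in Lrig1 ablation. The part of these cells in the values of Fn1 and the other genes was not tested.

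**Figure D4:**
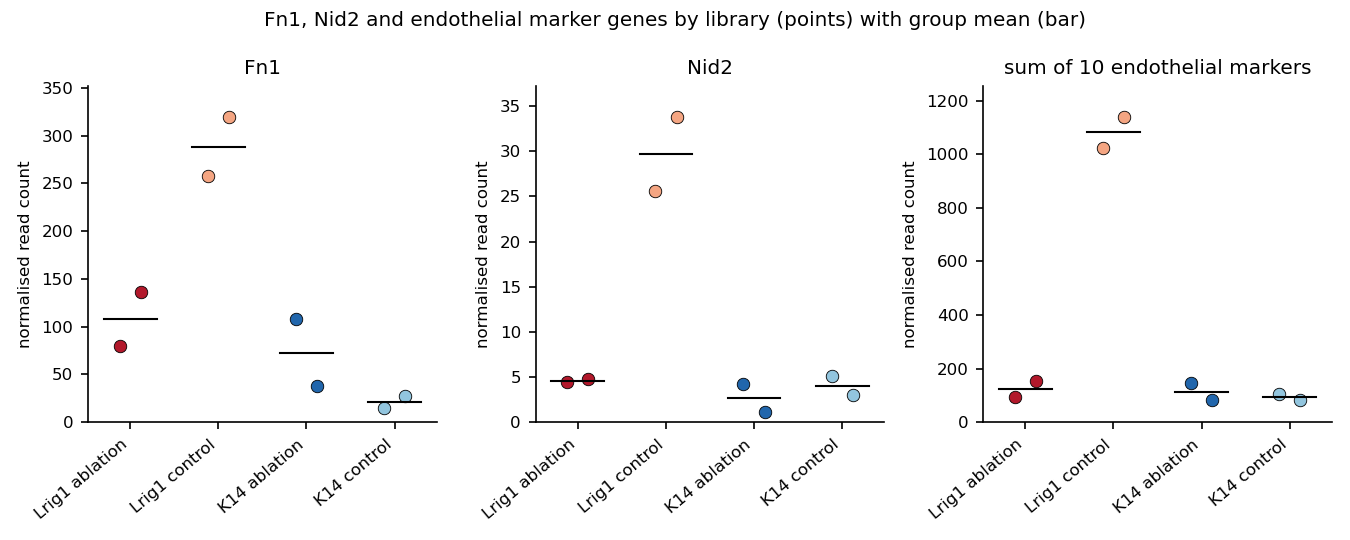
Normalised read counts of Fn1 and Nid2 and the summed normalised reads of 10 endothelial marker genes in every library (points) with the group mean (bar), on linear axes from 0. All 3 are highest in the 2 Lrig1 control libraries, where the endothelial sum is 1024 and 1140.

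Thbs1 and Tnc each share exon sequence with an annotated gene on the opposite strand. Gm29233, a long noncoding RNA gene over Thbs1, had 6.4 to 7.38% of the normalised reads of Thbs1 in the 8 libraries, and 8030451A03Rik, a processed transcript over Tnc, had 9.31 to 13% of those of Tnc. Of all tested genes, these had the profiles most like those of Thbs1 and Tnc, with root mean square differences of 0.08 and 0.16 between centred log2 values over the 8 libraries. Gm29233 was at -1.50 ± 0.19 in K14 (SE; limma adjusted p = 0.0324), at 0.81 ± 0.19 in Lrig1 (limma adjusted p = 0.0604) and at 2.31 ± 0.27 for the difference of effects (limma adjusted p = 0.0401). With the strand setting unknown, reads in the exon sequence shared by each gene and its opposite-strand partner cannot be told apart. Fn1 also overlaps an opposite-strand gene, Apol7d, which was between 0 and 9.31 in the 8 libraries. For the other genes the nearest profiles were those of Prex2 for Fn1 (0.18), Capn6 for Postn (0.22), Slc15a3 for Hspg2 (0.15), Cbx6 for Fbln1 (0.22), Dtymk for Agrn (0.12), Susd4 for Sparc (0.18), Pde1c for Nid1 (0.21) and Homer2 for Nid2 (0.41), as the same root mean square difference.

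**Figure D5:**
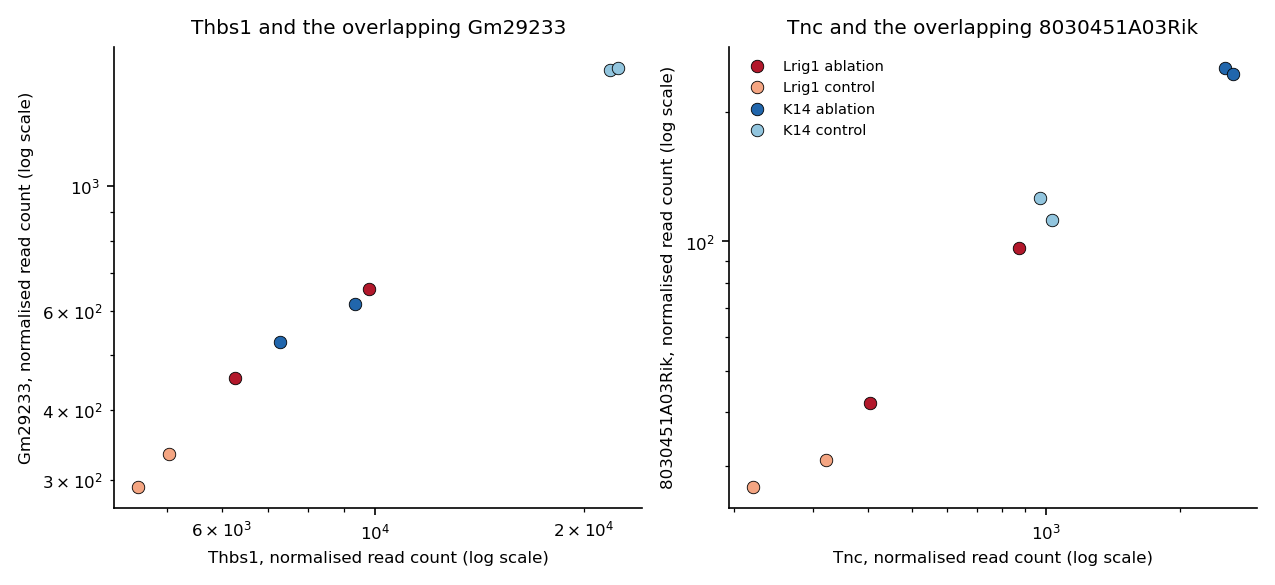
Normalised read count of Gm29233 against Thbs1 and of 8030451A03Rik against Tnc, 1 point a library, both axes on a log scale. The points lie close to a line in each panel, and the partner holds 6.4 to 7.38% of the Thbs1 reads and 9.31 to 13% of the Tnc reads.

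Other genes of the same matrix were counted in 5 lists. Over all tested genes 0.766% rose and 3.3% fell in Lrig1 ablation, and 20.1% had an unadjusted p under 0.05 (limma). In K14 ablation 0.187% passed and 12.8% had an unadjusted p under 0.05. Between controls 6.52% were higher and 2.27% lower in Lrig1. Of 31 further basement membrane genes 28 were tested. In Lrig1 ablation 26 of the 28 had positive values, with a median log2 difference of 0.64 beside -0.02 over all tested genes. Only 1 rose, the laminin chain gene Lama5, by 1.05 ± 0.15 (SE, limma adjusted p = 0.0126), and 10 had an unadjusted p under 0.05. The 31 listed genes summed to 54346 and 28971 normalised reads in Lrig1 ablation, against 26056 and 28136.5 in Lrig1 control. By this sum Lrig1 ablation 2 lay close to the controls. In K14 ablation 12 of the 28 had positive values, with a median of -0.16, and 0 passed (limma; 4 at an unadjusted p under 0.05). In Lrig1 control, relative to K14 control, 7 of the 28 were lower and 2 higher, with a median of -0.79. Among the lower were Col7a1, the anchoring fibril collagen, at -1.62 ± 0.21 (limma adjusted p = 0.00525), and Lama3, a chain of laminin-332, at -1.04 ± 0.20 (limma adjusted p = 0.0202). The higher were Egfl6, at 2.48 ± 0.45, and Lamb2, at 0.74 ± 0.13.

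Of 38 listed family relatives and other matrix glycoproteins 28 were tested. Of these, 1 rose and 3 fell in Lrig1 ablation, and 0 passed in K14 ablation (limma). At an unadjusted p under 0.05 there were 9 in Lrig1 and 6 in K14. The elastic fibre genes Eln and Fbn1 were at -3.33 ± 0.68 (SE; limma adjusted p = 0.0373) and -2.85 ± 0.58 (limma adjusted p = 0.0372), Emilin2 at -2.52 ± 0.56, and Efemp2, which encodes fibulin-4, at 1.68 ± 0.36. Eln had 3.55 and 2.39 normalised reads in Lrig1 ablation, against 25.6 and 57.8 in Lrig1 control, and 1.02 and 1.97 in K14 control. It entered the tests only through the Lrig1 control libraries. Emilin2 had 1.775 and 3.98 in Lrig1 ablation, against 16.3 and 25.4 in Lrig1 control. In Lrig1 control relative to K14 control 8 of these 28 were higher, led by Fbn2 at 3.43 ± 0.39, the follistatin-like gene Fstl1 at 3.10 ± 0.37, Fbln2, a relative of Fbln1, at 3.48 ± 0.43 and the proteoglycan gene Bgn at 2.12 ± 0.31. The 1 lower gene was Matn2, named here after its values were seen.

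Of 30 listed receptors 29 were tested, 12 in Lrig1 and 6 in K14 with an unadjusted p under 0.05 (limma). After adjustment 0 passed in K14 ablation and 2 fell in Lrig1 ablation. They were Ptprb, an endothelial receptor phosphatase, at -5.18 ± 0.69 (SE; limma adjusted p = 0.0101), and the integrin chain gene Itgb5 at -1.05 ± 0.16 (limma adjusted p = 0.0142). The median was -0.03 in Lrig1 and 0.13 in K14. Of 31 tested genes of matrix assembly, cross-linking and cleavage, from 37 listed, Mmp10, a stromelysin, fell in Lrig1 ablation, at -2.81 ± 0.52. It had 0.887 and 0 normalised reads there against 10.5 and 7.05 in Lrig1 control. Ext1, an enzyme of heparan sulphate synthesis, rose in Lrig1 ablation by 0.64 ± 0.13 (limma adjusted p = 0.0387). In K14 ablation 0 passed (limma). At an unadjusted p under 0.05 there were 7 in Lrig1 and 6 in K14. Of 18 tested TGF-beta genes 5 in Lrig1 and 6 in K14 had an unadjusted p under 0.05 (limma). Among them Ltbp1 rose in K14 ablation, by 1.54 ± 0.19 (limma adjusted p = 0.0305), and Ltbp2 in Lrig1 ablation, by 1.97 ± 0.34 (limma adjusted p = 0.0215). Both encode binding proteins of the latent TGF-beta complex.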

How the data were processed

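Per the submitters' processing notes, Trimmomatic, STAR, Picard and HTSeq (version 0.11.1) were used with genome build GRCm38 (mm10). No source used here states their roles, whether counting used strand, or the annotation. The authors deposited a normalised signal per gene and library. In every library at least 99.957% of the values were whole multiples of 1 step, within 0.01 read, which gave the reads per gene. The ablation columns use other words than the labels and were matched by population and number, with 1.1 read as 1.

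Genes entered the tests when 2 or more libraries reached 1e-06 of their total. This kept 18140 genes, all 10 described here among them, Nid2 only through the Lrig1 control libraries. Tests used limma 3.58.1 (R 4.3.3, variance trend) on log2(value + 1) in 1 fit of the 4 group means, with 4 residual and 4.13 prior degrees of freedom, and Benjamini-Hochberg adjustment over all tested genes. The fit was tested on simulated data in which all groups had the same spread. That test does not cover the unequal spread of ablation and control pairs seen here. edgeR 4.0.16 and DESeq2 1.42.0 on the recovered reads, other pseudocounts, filters and scalings, a replicate block and leaving out each library were alternatives. Where that left a group with 1 library, it was assumed to vary like the other groups. Coordinates and exon lengths came from GENCODE M21 (GRCm38), and levels per kb divide by the summed exon length. The 10 genes are all named. Of each list at most 4 genes past the threshold were named per comparison, smallest p first. The most similar gene had the smallest root mean square difference of centred log2 profiles. Members and lists were chosen with earlier results of these data known. The floor of 3 reads covers counting error only, since reads without molecular identifiers are not independent molecules.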

Additional observations from a re-analysis of the deposited data

How the results depend on the processing

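The main fit called 737 genes in Lrig1 ablation against control, 34 in K14 ablation against control, 1594 between Lrig1 and K14 controls, 121 between Lrig1 and K14 ablation, and 36 for the difference of effects; in this order edgeR called 588, 32, 1396, 135 and 32. Fitting only the groups compared gave 170, 0, 7269 and 0 for the first 4, and array weights 451, 477, 6747, 31 and 146. DESeq2 gave 221 in K14, 666 between ablation groups and 303 for the difference. Without the filter there were 75 between ablation groups and 5 for the difference, which had 90 with pseudocount 8 and 0 with CPM.

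Of the 10 genes, 4 in Lrig1, 2 in K14, 2 between ablation groups and 0 for the difference passed. Fitting only the groups compared left 0 in Lrig1, 0 in K14 and 0 between ablation groups. Between controls the main fit called 6, and this fit and array weights each called 8. Array weights gave 4 in K14, 1 between ablation groups and 1 for the difference, DESeq2 7 in Lrig1, 5 in K14 and 2 for the difference, and no filter 1 between ablation groups. Replicate numbers gave no sign of pairing: deviations of same-numbered libraries correlated at 0.0277 in Lrig1 and 0.0838 in K14. These values cannot decide whether the libraries were paired, since the ablation pairs differed far more than the control pairs. With the replicate block 321 genes passed in Lrig1, 2 in K14, 66 between ablation groups and 0 for the difference, and 2, 0 and 1 of the 10 genes in the first 3.

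Leaving out 1 library gave 5 to 2498 genes in Lrig1, 0 to 740 in K14, 1 to 3539 between controls, 0 to 4041 between ablation groups and 0 to 2022 for the difference. Of the 10 genes it gave 0 to 6, 0 to 4, 0 to 8, 0 to 4 and 0 to 3.

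CPM scaling moved the median of all genes by 0.25 in Lrig1, 0.13 between ablation groups and 0.22 for the difference. Signs turned only for genes that had not passed. In Lrig1 Sparc became 0.17 with CPM, 0.33 with edgeR and 0.30 with DESeq2. In K14 Postn became 0.0062 with TMM, 0.022 with CPM and 0.0069 with edgeR, and Nid1 0.21 with edgeR and 0.23 with DESeq2. Between ablation groups CPM gave 0.059 for Thbs1, 0.021 for Hspg2 and 0.083 for Agrn, and Nid1 became -0.43 with edgeR and -0.46 with DESeq2. For the difference CPM gave 0.0145 for Tnc, 0.0153 for Hspg2, 0.12 for Fbln1 and 0.0803 for Nid1. Leaving out 1 library spanned 0 for Sparc in Lrig1 (-1.16 to 1.01); for Postn (-0.0547 to 0.0528), Nid1 (-2.46 to 1.15), Nid2 (-1.24 to 0.10) and Sparc (-0.37 to 0.0017) in K14; for Hspg2 between controls (-0.0081 to 0.21); for Fn1 (-0.0531 to 1.45), Thbs1 (-0.40 to 0.25), Nid1 (-1.43 to 2.18) and Agrn (-0.23 to 0.13) between ablation groups; and for Tnc (-0.77 to 0.34), Fbln1 (-0.23 to 0.0252), Nid1 (-1.95 to 1.66) and Sparc (-0.97 to 1.19) for the difference. The causes were not tested. Nid2, at 1 to 24 reads, is limited by depth.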
